A study of Homo sapiens with 21 samples.

Results

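The 5 genes described here, MDM2, MDM4, PPM1D, CCNG1 and RCHY1, encode feedback regulators of the transcription factor p53, and they were taken by symbol from a table of 23368 genes. All 5 of 5 were listed and tested, within 19694 genes whose values varied between libraries. Messenger RNA was sequenced from hTERT-HPNE, a human pancreatic cell line that is immortalized with a telomerase transgene and is not transformed, in 21 libraries that form 7 groups of 3 biological replicates. The groups were untreated cells (0 h), cells given 300 µM hydrogen peroxide (H2O2), which causes oxidative stress, for 4 h, 8 h or 24 h, and cells given 400 ng/ml neocarzinostatin (NCS), a radiomimetic drug that makes DNA double-strand breaks, for 4 h, 8 h or 24 h. All cells grew in medium with serum, puromycin and EGF, and the medium was renewed when either agent was added. The same 3 untreated libraries, collected at 0 h, serve both stresses, so time in renewed medium and treatment cannot be told apart against untreated cells, while both stresses share that time at 4 h, 8 h and 24 h.

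p53 is held at a low level in unstressed cells because its own target MDM2 ubiquitinates it, and damage signals break this loop. MDM4 (also called MDMX) is a relative of MDM2 that binds p53 and blocks its activity. PPM1D (WIP1) is a phosphatase that removes damage-induced phosphates from p53 and the kinases above it, CCNG1 (cyclin G1) brings a PP2A phosphatase to MDM2, and RCHY1 (PIRH2) is another ubiquitin ligase of p53. All 5 have been described as feedback inhibitors, and MDM2, PPM1D and CCNG1 are classical p53 target genes.

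In the annotation used here (GENCODE v29, GRCh38) MDM2 lies on chromosome 12 at 68808176 to 68850686 (+), MDM4 on chromosome 1 at 204516379 to 204558120 (+), PPM1D on chromosome 17 at 60600183 to 60666280 (+), CCNG1 on chromosome 5 at 163437569 to 163446151 (+) and RCHY1 on chromosome 4 at 75479037 to 75514764 (−). The submitters' processing notes name hg19 for the expression values, so these positions only place the genes. RefSeq (GRCh38.p14) gave promoter windows of 300 bases, 250 before and 50 after a start, for 5 of 5 genes, 12 windows in all. Each window was searched on both strands for the p53 response element (20 bases, up to 3 mismatches), for AP-1 as TGACTCA or TGAGTCA, and for the CRE as TGACGTCA. The p53 response element was taken as 2 half-sites end to end, with the core C and G of both half-sites required. Stretches that differed at any of these core bases were not counted or capitalized, even with no more than 3 mismatches. The windows of MDM2 and PPM1D are shown because these genes had the widest range of group means and their windows held matches, which are in capitals and do not overlap each other. The first is at chr12:68808767-68809066 (+), around an internal MDM2 start, and the second at chr17:60599943-60600242 (+).
MDM2: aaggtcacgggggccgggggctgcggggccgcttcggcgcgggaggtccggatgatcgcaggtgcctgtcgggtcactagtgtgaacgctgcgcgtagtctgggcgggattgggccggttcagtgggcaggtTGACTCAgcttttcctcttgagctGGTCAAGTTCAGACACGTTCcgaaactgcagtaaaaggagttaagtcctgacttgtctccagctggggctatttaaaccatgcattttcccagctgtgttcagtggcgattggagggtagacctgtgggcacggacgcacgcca
PPM1D: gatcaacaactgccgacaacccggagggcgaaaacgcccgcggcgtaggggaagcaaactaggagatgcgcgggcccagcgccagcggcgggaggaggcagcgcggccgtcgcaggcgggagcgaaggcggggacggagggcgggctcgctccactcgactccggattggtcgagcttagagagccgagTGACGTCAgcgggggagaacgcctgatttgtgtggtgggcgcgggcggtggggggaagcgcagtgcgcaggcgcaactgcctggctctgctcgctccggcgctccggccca
In the MDM2 window, the capitals mark the AP-1 match at 68808899 to 68808905 and the p53 response element match (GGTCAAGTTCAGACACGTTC, 2 mismatches) at 68808923 to 68808942, 94 bases before the start. In the PPM1D window they mark a CRE match at 60600132 to 60600139, 61 bases before the start. The upstream MDM2 start and the windows of MDM4, CCNG1 and RCHY1 held none of these letters. Of 35116 RefSeq windows of this length, 1.12% held the p53 response element, 4.95% the AP-1 letters and 1.85% the CRE letters. A match describes the sequence only, and no binding was measured.

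The values are regularized log2 read counts (rLog), which pull small or noisy differences toward 0, so that differences and the folds taken from them understate changes. Across libraries the median over tested genes lay between 7.14 and 7.19, and the read depth is unknown because no read counts were used here. The libraries were checked against marker genes of the line. TERT (13.86 to 14.37), NES (11.78 to 12.28), VIM (16.79 to 17.25), KRT18 (11.38 to 11.85) and KRT8 (7.73 to 8.28) were expressed in every library, KRT7 (6.61 to 7.17) and SOX9 (5.78 to 6.48) less clearly, and the duct keratin KRT19 lay near the floor (0.58 to 0.73). Of 5 markers of other cell types, PTPRC, EPCAM and CPA1 stayed below 1, INS was listed at 0 and PECAM1 lay between 2.02 and 2.42. PECAM1, an endothelial gene, was highest in the H2O2 4 h libraries (2.42, 2.41 and 2.28), the group in which MDM4 and RCHY1 fell, and passed limma there against untreated cells by 0.33 and against NCS by 0.34. Its part in those results was not tested. In a bulk library, a lower value from fewer expressing cells and one from less RNA per cell cannot be told apart.

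The 3 members MDM2, PPM1D and CCNG1, rose in all 6 treated groups, whereas MDM4 and RCHY1 fell only in the H2O2-treated cells at 4 h among these groups. A gene is said to rise or fall where limma gave an adjusted p under 0.05 over all 19694 genes, and to be differentially expressed where the absolute log2 difference was also over 1. At 4 h in H2O2, 3 members rose and 2 fell, beside 26.2% of all genes that rose and 19.7% that fell. At 8 h in H2O2, 4 members rose and none fell (18.8% and 18.6% of all genes), and at 24 h 4 rose and none fell (20.2% and 19.9%). In NCS, 3 members rose and none fell at 4 h (7.47% and 9.72% of all genes), at 8 h (10.5% and 13.3%) and at 24 h (19.6% and 18.4%). Differential expression was reached by MDM2 alone among the members, at 8 h and 24 h in H2O2 (0.518% and 1.61% of all genes) and at 4 h and 8 h in NCS (0.218% and 0.34%). No member reached it at 4 h in H2O2 (0.696%) or at 24 h in NCS (1.5%). At 24 h in NCS MDM2 lay just below the cutoff (0.99, and up to 1.02 in other settings). The study set this cutoff on fold changes from DESeq2, while here it was applied to rLog differences, which understate changes. With so many genes moving in most comparisons, the counts of members say less than the sizes of their differences.

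**Figure D1:**
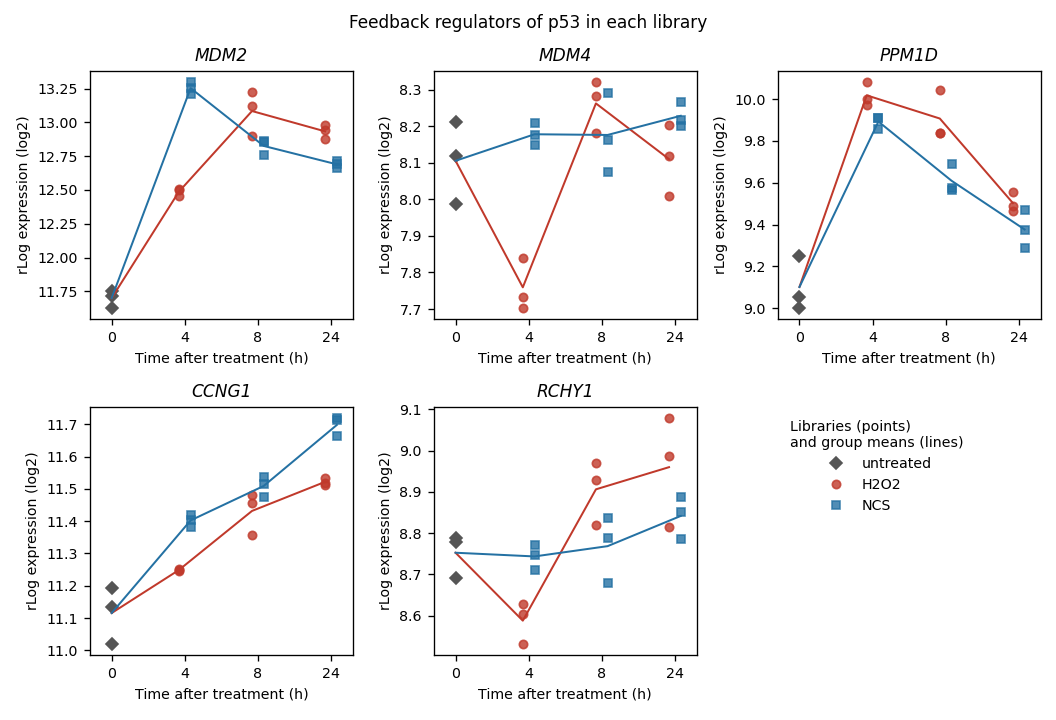
Expression of the 5 feedback regulators in each library (points, rLog values on a log2 axis whose range differs between panels) against time after treatment (0 h, 4 h, 8 h and 24 h at equal spacing). Grey diamonds are the untreated libraries, red circles H2O2, blue squares NCS, and lines join group means of 3 libraries. MDM2 peaks at 4 h in NCS (mean 13.25) and at 8 h in H2O2 (13.08), PPM1D peaks at 4 h in both stresses, CCNG1 climbs to 24 h in both, and MDM4 and RCHY1 dip at 4 h in H2O2.

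MDM2, the ubiquitin ligase at the centre of the loop, was higher than in untreated cells in every treated group and followed a different time course in each stress. The untreated libraries read 11.72, 11.75 and 11.63. In response to H2O2 they read 12.50, 12.46 and 12.51 after 4 h, 13.23, 12.90 and 13.12 after 8 h, and 12.94, 12.98 and 12.88 by 24 h. In response to NCS they read 13.21, 13.30 and 13.25 after 4 h, 12.87, 12.85 and 12.76 after 8 h, and 12.66, 12.72 and 12.69 by 24 h. All treated libraries lay above every untreated one, and at 4 h every NCS library lay above every H2O2 library. The difference from untreated cells at 8 h in H2O2 was 1.39 (SE 0.06, adjusted p = 9.29e-12), 2.61-fold on this scale, and at 24 h it was 1.23 (adjusted p = 2.42e-12). In NCS the 4 h value, 2.94-fold above untreated cells, was the rank 5 increase among all genes, and the differences at 8 h and 24 h were 1.13 (adjusted p = 7.90e-11, rank 8) and 0.99 (adjusted p = 6.11e-11, rank 26).

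The steps between times separated the courses further. From 4 h to 8 h MDM2 gained 0.60 under H2O2 (SE 0.06, adjusted p = 1.25e-07), while under NCS it fell by 0.43 (adjusted p = 4.39e-05), and neither pair of groups overlapped. From 8 h to 24 h it changed by -0.15 in H2O2 (adjusted p = 0.0407), where the ranges overlapped. That call was lost without the first H2O2 8 h library (-0.08, adjusted p = 0.271), without the third (adjusted p = 0.129), and without the first (adjusted p = 0.0760) or the third (adjusted p = 0.148) H2O2 24 h library, and without the second H2O2 8 h library the step was -0.24. The H2O2 call was also lost under quantile normalization (-0.08, adjusted p = 0.244) and with only those 2 groups fitted (adjusted p = 0.219). It was lost too with no filter (adjusted p = 0.0723) or no mean-variance trend (adjusted p = 0.0593). In NCS the step was -0.14 (adjusted p = 0.0849), without overlap. That step passed under quantile normalization (-0.16, adjusted p = 0.0295), over genes with a mean of at least 5 (adjusted p = 0.0199) and with only those 2 groups fitted (adjusted p = 0.0222). Ordered by mean, the groups ran from untreated cells (11.70 ± 0.06, SD, n = 3) through H2O2 at 4 h (12.49 ± 0.03), NCS at 24 h (12.69 ± 0.03), NCS at 8 h (12.83 ± 0.06), H2O2 at 24 h (12.93 ± 0.05) and H2O2 at 8 h (13.08 ± 0.17) to NCS at 4 h (13.25 ± 0.05). Neighbours overlapped only between the last 3 groups of that order. The range of group means, 1.55, was at percentile 99.1 of the tested genes. Ranks and percentiles of change were taken on rLog values, which pull small or noisy differences toward 0. The mean of MDM2 over the libraries was itself high, at percentile 97.1 of the tested genes.

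PPM1D, the phosphatase that resets the damage signal, was highest at 4 h in both stresses and lower again by 24 h. Untreated libraries read 9.00, 9.25 and 9.05. With H2O2 they read 9.97, 10.00 and 10.08 after 4 h, 10.04, 9.84 and 9.84 after 8 h, and 9.56, 9.49 and 9.46 by 24 h. With NCS they read 9.91, 9.86 and 9.91 after 4 h, 9.69, 9.56 and 9.57 after 8 h, and 9.29, 9.47 and 9.37 by 24 h. Each treated group lay above all untreated libraries. Differences from untreated cells were 0.92 (SE 0.06, adjusted p = 1.81e-09), 0.81 (adjusted p = 1.72e-08) and 0.40 (adjusted p = 4.28e-05) in H2O2, and 0.79 (adjusted p = 6.37e-08), 0.51 (adjusted p = 7.36e-06) and 0.28 (adjusted p = 0.00186) in NCS. The 4 h value in H2O2 is 1.89-fold on this scale.

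In NCS PPM1D had already fallen between 4 h and 8 h, by 0.28 (adjusted p = 0.00521), whereas in H2O2 that step was -0.11 (adjusted p = 0.176) with overlapping ranges. The difference between these steps was itself not past the threshold (0.17, 95% interval -0.02 to 0.36, adjusted p = 0.164). From 8 h to 24 h PPM1D fell by 0.40 in H2O2 (adjusted p = 4.20e-05). In NCS it fell by 0.23 over that step (adjusted p = 0.00889). The NCS step lost its call without the first NCS 8 h library (-0.19, adjusted p = 0.0527) or the first NCS 24 h library (-0.19, adjusted p = 0.0570). Between the stresses, PPM1D was higher in H2O2 at 8 h by 0.30 (adjusted p = 0.00125, no overlap). At 4 h and 24 h the difference was 0.13 at both times (95% intervals -0.01 to 0.26, adjusted p = 0.127 and 0.194). The ranges did not overlap at 4 h but did at 24 h. The 4 h value passed with only those 2 groups in the fit (adjusted p = 0.0252) and under quantile normalization (0.16, adjusted p = 0.0489).

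CCNG1, the cyclin that brings PP2A to MDM2, rose less and was highest at 24 h in both stresses. Untreated libraries read 11.19, 11.02 and 11.13. In H2O2 they read 11.25, 11.25 and 11.25 after 4 h, 11.46, 11.36 and 11.48 after 8 h, and 11.51, 11.52 and 11.53 by 24 h. In NCS they read 11.38, 11.40 and 11.42 after 4 h, 11.47, 11.54 and 11.52 after 8 h, and 11.71, 11.66 and 11.72 by 24 h. No treated library reached down into the untreated range, although the first untreated library came close to the H2O2 4 h ones. Differences from untreated cells were 0.13 (SE 0.04, adjusted p = 0.00480), 0.32 (adjusted p = 1.03e-06) and 0.41 (adjusted p = 2.12e-08) in H2O2, and 0.29 (adjusted p = 1.05e-05), 0.39 (adjusted p = 1.21e-07) and 0.58 (adjusted p = 1.43e-10) in NCS. The H2O2 value at 4 h missed the threshold when only those 2 groups were fitted (adjusted p = 0.0587), and without the second untreated library it was 0.085 (adjusted p = 0.0375). CCNG1 was lower in H2O2 than in NCS at 4 h by -0.15 (adjusted p = 0.00168) and at 24 h by -0.18 (adjusted p = 0.00122), with no overlap, and at 8 h the difference was -0.08 (adjusted p = 0.108) with overlapping ranges. The difference between the stresses did not pass for a change from 4 h to 8 h (0.08, 95% interval -0.03 to 0.18, adjusted p = 0.277) or to 24 h (-0.02, interval -0.13 to 0.08, adjusted p = 0.764).

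The order of group means also differed from that of MDM2 and PPM1D, since the highest CCNG1 group was NCS at 24 h (11.70 ± 0.03, SD, n = 3), a group in the lower part of the other 2 orders. Steps in CCNG1 were 0.18 from 4 h to 8 h in H2O2 (adjusted p = 0.000347) and 0.19 from 8 h to 24 h in NCS (adjusted p = 0.000395). The H2O2 step from 8 h to 24 h, 0.09 (adjusted p = 0.0494), lost its call without the first (adjusted p = 0.0539) or second (0.05, adjusted p = 0.259) H2O2 8 h library and without the first (adjusted p = 0.0813), second (adjusted p = 0.0911) or the third (adjusted p = 0.120) H2O2 24 h library. The H2O2 call was also lost with medians aligned (0.07, adjusted p = 0.0916) and with only those 2 groups fitted (adjusted p = 0.105). It was lost too with no filter (adjusted p = 0.0715) or no mean-variance trend (adjusted p = 0.0584). The NCS step from 4 h to 8 h was 0.11 (adjusted p = 0.0548). That step passed under quantile normalization (0.13, adjusted p = 0.0216), over genes with a mean of at least 5 (adjusted p = 0.0201) and with only those 2 groups fitted (adjusted p = 0.0233).

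MDM4, the MDM2 relative that blocks p53 activity, fell in H2O2 at 4 h and overlapped the untreated range at 8 h and 24 h. Untreated libraries read 8.21, 8.12 and 7.99. In H2O2 they read 7.84, 7.70 and 7.73 after 4 h, 8.32, 8.18 and 8.28 after 8 h, and 8.20, 8.12 and 8.01 by 24 h. In NCS they read 8.18, 8.21 and 8.15 after 4 h, 8.29, 8.16 and 8.07 after 8 h, and 8.27, 8.20 and 8.22 by 24 h. The 3 H2O2 4 h libraries lay below all other libraries, and the remaining groups overlapped their neighbours in the order of means. At 4 h in H2O2 MDM4 fell by 0.35 (SE 0.06, adjusted p = 0.000183) against untreated cells, and it then rose by 0.50 to 8 h (adjusted p = 3.32e-06). Against untreated cells it was 0.16 at 8 h (adjusted p = 0.0600) and 0.0046 at 24 h (95% interval -0.13 to 0.14, adjusted p = 0.966). In NCS the differences were 0.07 at 4 h (interval -0.06 to 0.21, adjusted p = 0.567), 0.07 at 8 h (interval -0.06 to 0.20, adjusted p = 0.541) and 0.12 at 24 h (interval -0.01 to 0.26, adjusted p = 0.147). MDM4 was lower in H2O2 than in NCS at 4 h by -0.42 (adjusted p = 2.58e-05).

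Other values of MDM4 passed or did not pass depending on single libraries and settings. At 8 h in H2O2 the difference from untreated cells ranged with a library left out from 0.10 (without the third untreated library, adjusted p = 0.296) to 0.21 (without the first, adjusted p = 0.0200), and it also passed without the second H2O2 8 h library (0.20, adjusted p = 0.0303), with medians aligned (adjusted p = 0.0398), under quantile normalization (0.19, adjusted p = 0.0262) and over genes with a mean of at least 5 (adjusted p = 0.0298). The step from 8 h to 24 h in H2O2, -0.15 (adjusted p = 0.0611), ranged from -0.20 (without the first H2O2 24 h library, adjusted p = 0.0285) to -0.10 (without the third, adjusted p = 0.270), and it also passed without the second H2O2 8 h library (-0.19, adjusted p = 0.0312), with medians aligned (adjusted p = 0.0197) and over genes with a mean of at least 5 (adjusted p = 0.0311). At 24 h in NCS the range was from 0.063 (without the third untreated library, adjusted p = 0.555) to 0.18 (without the first, adjusted p = 0.0472), and the value passed under quantile normalization (0.19, adjusted p = 0.0244). The fall at 4 h in H2O2 kept its call in every alternative run (adjusted p up to 0.0100).

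RCHY1, the ligase PIRH2, had the smallest range of group means (0.37, percentile 70.0 of tested genes). Untreated libraries read 8.69, 8.79 and 8.78. In H2O2 they read 8.60, 8.53 and 8.63 after 4 h, 8.97, 8.82 and 8.93 after 8 h, and 8.99, 8.82 and 9.08 by 24 h. In NCS they read 8.71, 8.75 and 8.77 after 4 h, 8.79, 8.84 and 8.68 after 8 h, and 8.89, 8.78 and 8.85 by 24 h. The H2O2 4 h libraries lay below all untreated ones and the H2O2 libraries of both later times above them, by margins close to the spread between replicates, while each NCS group overlapped the untreated range. Against untreated cells RCHY1 changed by -0.16 at 4 h in H2O2 (SE 0.06, adjusted p = 0.0262). The later H2O2 groups stood higher, by 0.15 after 8 h (adjusted p = 0.0440) and by 0.21 after 24 h (adjusted p = 0.00694). In NCS the differences were -0.01 (95% interval -0.13 to 0.11, adjusted p = 0.979), 0.02 (interval -0.11 to 0.14, adjusted p = 0.999) and 0.09 (interval -0.03 to 0.21, adjusted p = 0.269). The step from 4 h to 8 h in H2O2 was larger, 0.32 (adjusted p = 0.000179), with no overlap.

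Single libraries decided most calls of RCHY1. The 4 h call in H2O2 was lost without the second (-0.15, adjusted p = 0.0861) or the third (-0.15, adjusted p = 0.0757) untreated library or the second H2O2 4 h library (-0.14, adjusted p = 0.104), and under quantile normalization (-0.10, adjusted p = 0.176). The 8 h call was lost without the first (0.12, adjusted p = 0.166), second (adjusted p = 0.0539) or the third (adjusted p = 0.0632) untreated library and without the first (0.12, adjusted p = 0.173) or the third (0.14, adjusted p = 0.118) H2O2 8 h library, with no low-value filter (adjusted p = 0.0689), with no mean-variance trend (adjusted p = 0.0551) and with only those 2 groups in the fit (adjusted p = 0.0711). The 24 h call was lost without the third H2O2 24 h library (0.15, adjusted p = 0.0558) and with only those 2 groups in the fit (adjusted p = 0.0635).

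Comparing the stresses at the same time avoids the shared untreated libraries. At 4 h no member was higher in H2O2 than in NCS and 4 were lower (26.3% of all genes were higher and 18% lower, 0.574% differentially expressed). At 8 h 2 were higher, MDM2 and PPM1D, and none lower (18.7% and 15.4%, 0.162% differentially expressed), and at 24 h 1 was higher, MDM2, and 1 lower, CCNG1 (11% and 10.9%, 0.0152% differentially expressed). No member was differentially expressed between the stresses at any time. MDM2 lay at rank 25 from the lowest of all genes at 4 h, and at 8 h it was higher in H2O2 by 0.26 (SE 0.06, adjusted p = 0.00153), a call lost with only those 2 groups in the fit (adjusted p = 0.0672), which leaves 1 member. RCHY1 was lower in H2O2 at 4 h by -0.16 (adjusted p = 0.0357), which was lost without the first (adjusted p = 0.0594) or second (-0.13, adjusted p = 0.133) H2O2 4 h library or the second (adjusted p = 0.0784) or the third (adjusted p = 0.104) NCS 4 h library, with no low-value filter (adjusted p = 0.0568) and under quantile normalization (-0.10, adjusted p = 0.182). Its difference at 8 h was 0.14 (adjusted p = 0.0768). That value passed with medians aligned (adjusted p = 0.0166), over genes with a mean of at least 5 (adjusted p = 0.0388) and without the second H2O2 8 h library (adjusted p = 0.0291). The RCHY1 difference at 24 h, 0.12 (adjusted p = 0.175), passed without the second H2O2 24 h library (0.19, adjusted p = 0.0188). CCNG1 at 8 h passed as lower under quantile normalization (-0.10, adjusted p = 0.0381).

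**Figure D2:**
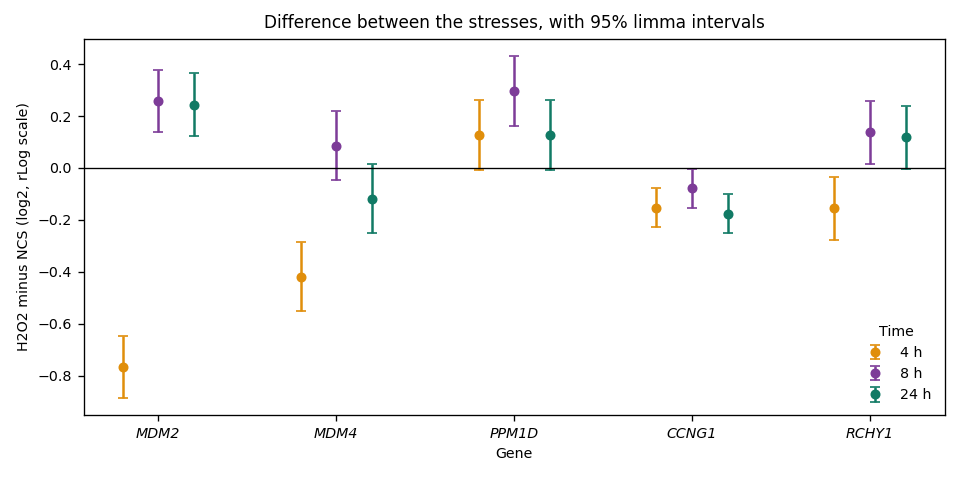
H2O2 minus NCS for each of the 5 genes on the rLog log2 scale at 4 h (orange), 8 h (purple) and 24 h (green). Points are differences of group means (3 libraries each) and bars their unadjusted 95% limma intervals. MDM2 lies at -0.77 at 4 h and above 0 at both later times, MDM4 lies at -0.42 at 4 h, and the CCNG1 values are all below 0.

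The difference between the stresses changed with time for MDM2, MDM4 and RCHY1. From 4 h to 8 h, 3 members passed this test of interaction (32.7% of all genes), and from 4 h to 24 h 3 passed (39.4%). For MDM2 the H2O2 minus NCS difference moved upward by 1.02 from 4 h to 8 h (SE 0.08, adjusted p = 4.20e-08), rank 11 of all genes, and by 1.01 to 24 h (adjusted p = 2.44e-08), rank 8. For MDM4 the shift was 0.51 to 8 h (SE 0.09, adjusted p = 0.000263) and 0.30 to 24 h (adjusted p = 0.0121), and for RCHY1 it was 0.29 to 8 h (SE 0.08, adjusted p = 0.00966) and 0.27 to 24 h (adjusted p = 0.0123). Under quantile normalization the shifts to 24 h of MDM4 (0.22, adjusted p = 0.0635) and RCHY1 (0.19, adjusted p = 0.0894) did not pass, which left 1 member. PPM1D gave 0.00097 to 24 h (95% interval -0.19 to 0.19, adjusted p = 0.994).

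Over the steps within a stress, 4 members rose from 4 h to 8 h in H2O2, all but PPM1D, beside 45.7% of all genes that changed in either direction. From 8 h to 24 h in H2O2, 3 changed (42.6% of all genes), with CCNG1 up and MDM2 and PPM1D down. That count was 1, PPM1D, without the first H2O2 8 h library or the third H2O2 24 h library. In NCS 2 members changed from 4 h to 8 h (13.7% of all genes), MDM2 and PPM1D, both down, and 2 changed from 8 h to 24 h (29.9%), CCNG1 up and PPM1D down. The last count was 1 without the first NCS 8 h or the first NCS 24 h library.

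MDM2 and MDM4 form a heterodimer, so the value of MDM2 minus that of MDM4 was taken within each library, where only its change between groups can be read. Untreated libraries gave 3.50, 3.63 and 3.64. H2O2 gave 4.66, 4.75 and 4.77 after 4 h, 4.90, 4.72 and 4.84 after 8 h, and 4.74, 4.86 and 4.87 by 24 h. NCS gave 5.03, 5.09 and 5.10 after 4 h, 4.57, 4.69 and 4.68 after 8 h, and 4.39, 4.52 and 4.47 by 24 h. Every treated library lay above every untreated one, and the mean differences from untreated cells were 1.13, 1.23 and 1.23 in H2O2 and 1.48, 1.06 and 0.87 in NCS at 4 h, 8 h and 24 h. A two-sided exact permutation test gave p = 0.1 for each of 6 comparisons (adjusted p = 0.1), the smallest that 3 against 3 libraries allow. At 4 h in H2O2 the change in this difference exceeded the rise of MDM2 itself (0.79) by the fall of MDM4.

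**Figure D3:**
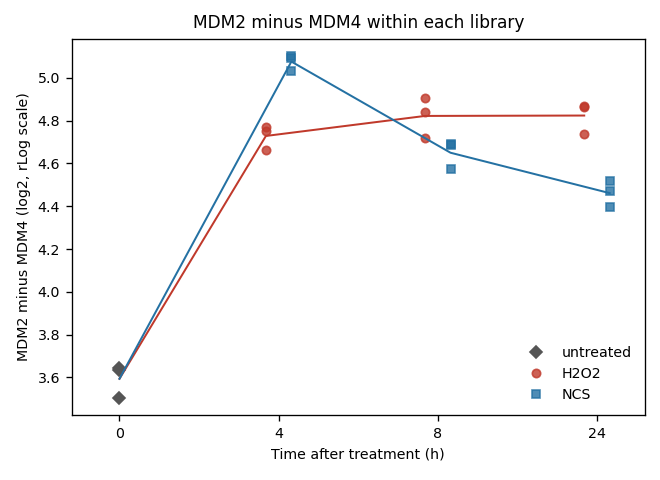
MDM2 minus MDM4 in each library (points, difference of rLog values, log2) against time after treatment (0 h, 4 h, 8 h and 24 h at equal spacing), with lines through group means of 3 libraries. Untreated libraries are grey diamonds, H2O2 red circles and NCS blue squares. The H2O2 means stay between 4.73 and 4.82, while the NCS means go from 5.08 at 4 h to 4.46 at 24 h.

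Other p53 target genes were read beside the members from a list of 23 that included the CDK inhibitor CDKN1A, the sestrins SESN1 and SESN2, the repair genes DDB2 and XPC and the death genes BAX, BBC3, FAS and TNFRSF10B. In NCS all 23 rose at 4 h, 8 h and 24 h, with median differences from untreated cells of 0.71, 0.78 and 0.74. In H2O2 19 rose and 1 fell at 4 h (median 0.52), 22 rose and none fell at 8 h (median 1.01), and 22 rose and 1 fell at 24 h (median 0.82). The median over all tested genes lay between -0.00034 and 0.0038 in these comparisons. Among all genes, 7.47%, 10.5% and 19.6% rose in NCS at these times, while 9.72%, 13.3% and 18.4% fell. The H2O2 shares were 26.2%, 18.8% and 20.2% that rose and 19.7%, 18.6% and 19.9% that fell. ZMAT3, an RNA-binding protein, fell at 4 h in H2O2 (-0.27) and rose at 8 h (0.69), and POLH, a translesion polymerase, was the 1 that fell at 24 h (-0.08).

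Between the stresses at 4 h, 2 of the 23 were higher in H2O2 and 16 lower (median -0.28). At 8 h 6 were higher and 7 lower (median 0.01), and at 24 h 10 were higher and 4 lower (median 0.10). Of all genes tested, 26.3%, 18.7% and 11% were higher in H2O2, in the same order of times. The shares lower in H2O2 were 18%, 15.4% and 10.9%. Examples with lower values in H2O2 at 4 h were FDXR, a mitochondrial reductase (-0.98), PHLDA3, an AKT inhibitor (-0.70), and SESN1 (-0.50), beside the -0.77 of MDM2. GADD45A (0.87) and SESN2 (0.77) were the 2 that were higher. The difference between stresses moved up from 4 h to 24 h in 16 of 23 and down in 2, which for MDM2 is the direction given above. From 4 h to 8 h it moved up in 13 and down in 5. Of all 19694 genes, 3278 moved up and 4472 down from 4 h to 24 h, and 2897 up and 3551 down from 4 h to 8 h.

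**Figure D4:**
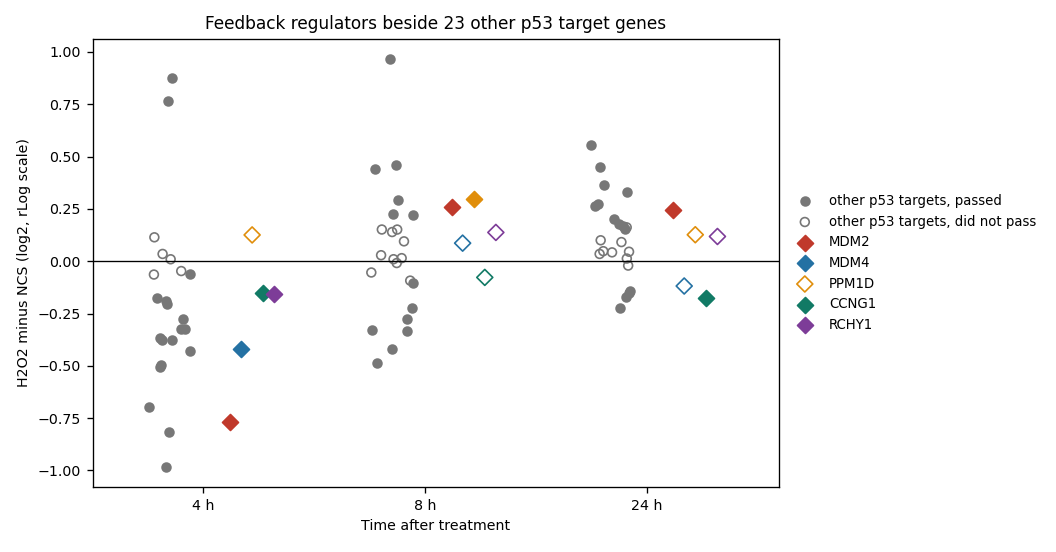
H2O2 minus NCS (log2, rLog scale) at 4 h, 8 h and 24 h for 23 other p53 target genes (grey circles, spread sideways only for legibility) and the 5 feedback regulators (coloured diamonds). Filled symbols passed limma's adjusted p of 0.05 and open ones did not. At 4 h most grey circles and 4 of the 5 diamonds are below 0, and at 24 h MDM2 is filled above 0 and CCNG1 filled below it.

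Other enzymes that act on p53 moved in both directions. Among 10 further ubiquitin ligases and deubiquitinases, 2 rose and 4 fell at 4 h in H2O2, 5 rose and 3 fell at 8 h, and 3 rose and 3 fell at 24 h, while in NCS the counts were 0 and 4, 1 and 3, and 2 and 3. Over all genes 26.2% rose and 19.7% fell, 18.8% and 18.6%, and 20.2% and 19.9% in H2O2, and 7.47% and 9.72%, 10.5% and 13.3%, and 19.6% and 18.4% in NCS, so several of these counts sit near the background. SYVN1, a ligase of the endoplasmic reticulum, rose most (0.48 at 8 h in H2O2 and 0.39 at 8 h in NCS), and TRIM24 fell in all 6 treated groups, by 0.41 at 4 h in H2O2 and by 0.42 at 24 h in NCS. USP7, the deubiquitinase of MDM2 and p53, moved between -0.15 and 0.12. RFWD2 (COP1), itself described as a p53-induced ligase, did not pass in any treated group (-0.02 to 0.08), nor did STUB1 (-0.07 to 0.07).

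Kinases that phosphorylate p53 or MDM2 had lower values in many of the comparisons. Of 8, 5 fell and none rose at 4 h in H2O2 (median -0.27), 5 fell and 3 rose at 8 h (median -0.35), and 5 fell and 1 rose at 24 h (median -0.16). In NCS 3 fell at 4 h, 4 at 8 h and 4 at 24 h, and 1 rose, at 24 h. Over all genes 19.7%, 18.6% and 19.9% fell at these times in H2O2 and 9.72%, 13.3% and 18.4% in NCS. The shares that rose were 26.2%, 18.8% and 20.2% in H2O2 and 7.47%, 10.5% and 19.6% in NCS. CHEK2, a checkpoint kinase, fell in all 6 groups, by 0.86 at 24 h in H2O2 and by 0.75 at 24 h in NCS. ATM and ATR, the kinases at the head of the damage response, fell by 0.38 and 0.45 at 4 h in H2O2, where the NCS values were -0.17 and -0.01. HIPK2 rose by 0.33 at 8 h in H2O2.

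Ribosomal proteins RPL5, RPL11 and RPL23 and the nucleolar proteins NPM1 and GNL3 bind MDM2, as does the ARF product of CDKN2A, which shares its gene with p16. Of these 6 genes, 5 rose at 4 h in H2O2 by 0.13 to 0.16 and 4 rose at 8 h, whereas in NCS none passed at 4 h and 1 rose and 1 fell at 8 h (0 and 3 with medians aligned, 0 and 2 under quantile normalization). At 24 h 3 rose and 3 fell in H2O2 (1 and 3 with medians aligned, 2 and 3 under quantile normalization), and 2 rose and 3 fell in NCS (1 and 4 under quantile normalization). NPM1 fell by 0.30 and 0.31 at 24 h in H2O2 and NCS. At 4 h 5 of the 6 were higher in H2O2 than in NCS (4 under quantile normalization), by 0.10 to 0.17. These differences are small beside those of MDM2. Among all genes, 26.2% rose at 4 h in H2O2 and 7.47% in NCS, and 18.8% and 10.5% rose at 8 h. The counts of the 6 genes in NCS at 4 h and 8 h thus stand beside a lower background of rises than those in H2O2. At 24 h 20.2% of all genes rose and 19.9% fell in H2O2, and 19.6% and 18.4% in NCS. Between the stresses at 4 h, 26.3% of all genes were higher in H2O2.

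For CCNG1 and PPM1D, relatives of the same families were read as well. CCNG2, the other G-type cyclin, fell by 0.69 at 4 h in NCS (CCNG1 rose by 0.29) and rose by 0.50 and 0.45 at 24 h in H2O2 and NCS, where CCNG1 also rose. The PP2C phosphatase PPM1B, of the family of PPM1D, fell in all 6 groups (-0.46 to -0.17), and PPM1G fell by 0.56 at 24 h in H2O2 and by 0.50 at 24 h in NCS. Of the 5 relatives, none rose and 2 fell at 4 h in H2O2, none rose and 3 fell at 8 h, and 3 rose and 2 fell at 24 h. In NCS the counts were 0 and 3, 0 and 3, and 1 and 3. The shares of all genes that rose and fell were 26.2% and 19.7%, 18.8% and 18.6%, and 20.2% and 19.9% in H2O2. In NCS these shares were 7.47% and 9.72%, 10.5% and 13.3%, and 19.6% and 18.4%.

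**Figure D5:**
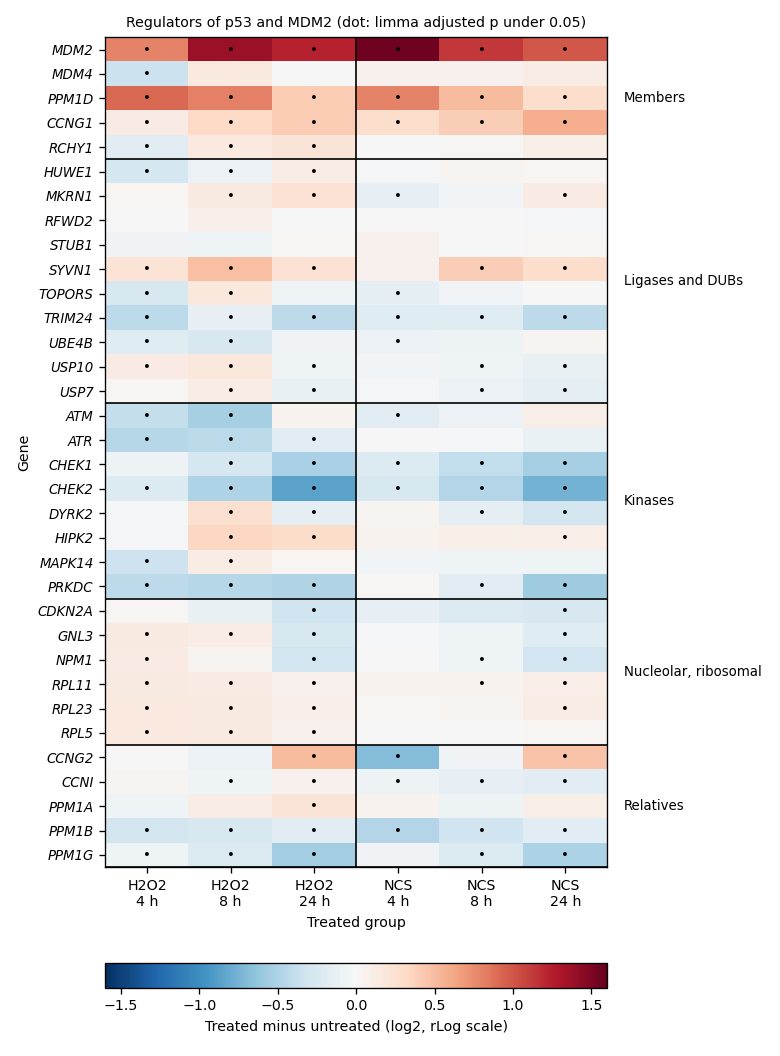
Difference from untreated cells (colour, log2 on the rLog scale, red higher and blue lower) for the 5 members, 10 other ubiquitin ligases and deubiquitinases (DUBs), 8 kinases, 6 MDM2-binding nucleolar and ribosomal proteins and 5 relatives (rows) in the 6 treated groups (columns). Dots mark adjusted p under 0.05 in limma. MDM2 is the darkest red row in every column except H2O2 at 4 h, where PPM1D (0.92) exceeds it (0.79), and CHEK2 at 24 h is the darkest blue.

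The genes with the most similar profiles were ranked by Pearson's r over the 21 libraries among 11676 genes with a mean of at least 5, as a description, since libraries of one group are not independent points and share the same normalization. For MDM2 they were SESN1 (r = 0.98), the p53 target kinase PLK3 (r = 0.96) and C12orf5 (TIGAR, r = 0.96). For CCNG1 they were PTCHD4 (r = 0.96), SPATA18 (r = 0.94) and CMBL (r = 0.94). For PPM1D they were INHBA (r = 0.95), PTP4A1 (r = 0.93) and AMIGO2 (r = 0.93). MDM4 was most like FLJ45340 (r = 0.94), GNL3L (r = 0.93) and ANKRD17 (r = 0.92), and RCHY1 most like ASB7, FLVCR2 and ZNF225 (r = 0.87 to 0.88). Among the members themselves, r was 0.65 between MDM2 and PPM1D, 0.62 between MDM2 and CCNG1, 0.61 between MDM4 and RCHY1, and -0.0035 between PPM1D and CCNG1, whose peaks lay at opposite ends of the time course.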

How the data were processed

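Libraries were made from hTERT-HPNE cells with a stranded mRNA kit. Per the labels and methods, the authors aligned reads with HISAT2, counted them with htseq-count in Galaxy and deposited the rLog output of DESeq2, a log2 value per gene and library. The processing notes name hg19, and the annotation and the strand setting of the counting are not given in the sources used here. Genes sharing reads with paralogs or pseudogenes could be split by that counting.

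From the log2 values, limma 3.58.1 (R 4.3.3) fitted the 7 groups over 21 libraries and allowed the variance to follow the mean. P-values were adjusted by Benjamini-Hochberg over 19694 genes, leaving out 3674 with one value in every library. The script was tested on simulated data. Described as separate biological replicates, libraries were taken as independent, with no statement of separate days. Over all tested genes, deviations of same-numbered libraries from their group means had correlations of -0.15 to 0.21. These correlations do not settle pairing for a single gene. For MDM4 the first library was the highest in every group except NCS at 4 h (8.18, 8.21 and 8.15). Examples are untreated cells (8.21, 8.12 and 7.99) and NCS at 8 h (8.29, 8.16 and 8.07). Alternatives were other scalings, filters and fits, and each library left out. Genes named are the 5 members, all genes of lists written down for this work, and the 3 genes most like each member. The members and lists were chosen with earlier results of these data known. Promoters came from RefSeq and gene positions from GENCODE v29. Python 3.11.15 with pandas 2.3.3 and matplotlib 3.10.9 made the summaries and plots.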

Additional observations from a re-analysis of the deposited data

Results flagged for a closer look

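The difference between H2O2 and NCS changed with time in 3 of the 5 genes, by limma's test of the interaction of stress and time. Of all genes, 32.7% passed this test from 4 h to 8 h and 39.4% from 4 h to 24 h. For MDM2 the H2O2 minus NCS difference moved up by 1.02 on the log2 scale from 4 h to 8 h (SE 0.08, adjusted p = 4.20e-08) and by 1.01 from 4 h to 24 h (adjusted p = 2.44e-08). For MDM4 it moved up by 0.51 to 8 h (adjusted p = 0.000263) and by 0.30 to 24 h (adjusted p = 0.0121), and for RCHY1 by 0.29 to 8 h (adjusted p = 0.00966) and by 0.27 to 24 h (adjusted p = 0.0123). In MDM2 the sign of the difference itself turned, with every H2O2 library below every NCS library at 4 h and above it at 8 h and at 24 h. With any 1 library left out, all 3 genes passed in both tests, and the MDM2 shift to 8 h ranged from 0.95 to 1.12. Under quantile normalization the shifts to 24 h of MDM4 (0.22, adjusted p = 0.0635) and RCHY1 (0.19, adjusted p = 0.0894) did not pass. No group has enough libraries for a test of outliers within it.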

How the results depend on the processing

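No difference that passed the threshold changed direction in any alternative. Of 525 recomputed differences of the 5 genes, 479 kept direction and side of the threshold, 19 no longer passed, 21 newly passed and 6 reversed, and with single libraries left out the numbers were 459 of 510, 24, 8 and 19. All reversals were of differences near 0. With library medians aligned, MDM4 at 24 h in H2O2 became -0.014, RCHY1 at 8 h in NCS -0.0071 and the PPM1D interaction to 24 h -0.023. Under quantile normalization that interaction was -0.054, the CCNG1 one 0.023 and the MDM4 step from 4 h to 8 h in NCS 0.010. Leaving out libraries, RCHY1 against untreated cells ranged from -0.039 to 0.0089 at 4 h in NCS and from -0.019 to 0.061 at 8 h, MDM4 from -0.055 to 0.058 at 24 h in H2O2, the PPM1D interaction to 24 h from -0.043 to 0.047, the RCHY1 step to 24 h in H2O2 from -0.0056 to 0.13, and the NCS steps to 8 h from -0.060 to 0.049 in MDM4 and from -0.0097 to 0.069 in RCHY1.

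The count of members changed from 8 h to 24 h in H2O2 was 1 with no filter, with no trend and with only the groups compared, and 1 to 3 with a library left out. In NCS the same step gave 1 to 2. At 8 h H2O2 against NCS gave 1 with only the groups compared and up to 3 in other settings. The interaction to 24 h gave 1 under quantile normalization. The cause was not tested. MDM2 minus MDM4 at 4 h in H2O2 was 1.07 under quantile normalization, and at 4 h in NCS it ranged from 1.44 to 1.51 with a library left out.

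With the replicate block, MDM4 passed at 8 h in H2O2 (0.16, adjusted p = 0.0122), at 24 h in NCS (0.12, adjusted p = 0.0443) and from 8 h to 24 h in H2O2 (-0.15, adjusted p = 0.0128), and CCNG1 from 4 h to 8 h in NCS (0.11, adjusted p = 0.0430). No other call changed, and paired MDM2 minus MDM4 kept its values (sign-flip permutation p = 0.25, the smallest possible).

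Over all genes, the share of calls that were higher depended on the scaling. With medians aligned it went from 57.1% to 46.1% at 4 h in H2O2, from 50.4% to 35.2% at 24 h, from 44.1% to 22.7% at 8 h in NCS, and for H2O2 against NCS from 54.7% to 72.7% at 8 h and from 50.3% to 23.5% at 24 h. It went from 45.5% to 32.5% and from 49.8% to 74.5% for the H2O2 and NCS steps to 24 h, and from 44.9% to 62.0% and 42.3% to 28.4% for the interactions to 8 h and 24 h. Quantile normalization gave 46.7% at 4 h in H2O2 and, for H2O2 against NCS at 4 h, 45.9% in place of 59.3%. Depth is unknown, and 3 libraries a group limit the precision.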
